A study of Mus musculus with 15 samples.

Results

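Small nuclear, nucleolar and other structural noncoding RNAs were followed in a count table of ribosome-associated RNA from mouse eggs and early embryos. They were taken by name: rows whose symbol begins with Snora, Snord, Scarna, Rnu or Rn7s, and the rows Malat1, Neat1, Rmrp, Rpph1, Terc and Vaultrc5, with a count of at least 1 summed over the 15 libraries. The names took 184 of the 55490 rows, of which 98 had a count and are the members described here, and 86 had none. The threshold lies at the lowest count possible: 20 members sat just inside it with a summed count of 1, and the 86 rows outside it were all at 0. Because the summed count chose the members, their detection and their totals are given as description without a test.

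The study compared eggs and embryos from females that were heterozygous (Het) or knockout (KO) for Eif4e1b, a germ-cell relative of the cap-binding translation factor eIF4E, at 3 stages: M2 eggs, PN5 zygotes and early 2-cell embryos. All females, in both genotypes, also carried the Rpl22 HA allele, which puts an HA tag on a ribosomal protein, and the strain was B6D2F1; the labels give neither the age of the animals nor what drives the tagged allele. Each library was a pool, of some 200 at the egg and zygote stages and some 100 at the early 2-cell stage, and held the RNA that remained after RNase I digestion and an anti-HA pull-down. There were 2 M2 Het, 2 M2 KO, 3 PN5 Het, 3 PN5 KO, 3 early 2-cell Het and 2 early 2-cell KO libraries. No untagged control and no input RNA were used here, so the level of a member on ribosomes and its level in the lysate cannot be told apart. In pooled embryos, fewer cells and less RNA per cell cannot be told apart either.

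Small nucleolar RNAs guide chemical modification of ribosomal and spliceosomal RNA: C/D box RNAs guide ribose methylation and H/ACA box RNAs guide pseudouridylation, while the C/D-type U3 RNA takes part in cutting the ribosomal RNA precursor. Most of them are cut from introns of host genes, among them ribosomal protein genes. The other members are RNAs of stable ribonucleoproteins: 7SK holds the elongation factor P-TEFb inactive, RMRP and RPPH1 are the RNA parts of RNase MRP and RNase P, vault RNA belongs to the cytoplasmic vault particle, U RNAs form the spliceosome, 7SL forms the signal recognition particle, and Malat1 and Neat1 are long RNAs retained in nuclear speckles and paraspeckles. The mouse egg and early zygote transcribe little, so much of their RNA is stored from the growing oocyte.

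Malat1, the member with the most counts, was the only member for which a reference sequence was at hand. The first 50 bases of its transcript, from RefSeq on GRCm38.p6 at chr19:5802623-5802672 on the minus strand, are shown to identify the row that gave the most counts. They are in lower case throughout because no part was singled out.
Malat1: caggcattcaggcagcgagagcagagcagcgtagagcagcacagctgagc

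The libraries were shallow for RNA other than ribosomal RNA. Totals ran from 93222 to 1201146 counts per library, and ribosomal RNA rows took so much of them that 1733 to 57475 non-rRNA counts were left. The shares below are percentages of these non-rRNA counts unless another scale is named. Eif4e1b itself was at 0 in all 15 libraries, so it does not check the genotype labels. Of 14 egg and oocyte markers measured, 7 had a count and Zp1, Zp2 and Zp3 had none, and their summed share ran from 0% to 0.942% over the libraries. The 12 blood and sperm markers held 1 count in all. Cumulus and granulosa markers, the cells that surround the egg, had a count for 6 of 19 genes, with Inha, Fshr, Amhr2 and Star at 0. Their summed share was 0.627% and 0.0711% in M2 Het, 0.0132% and 0.146% in M2 KO, 0.0705%, 0.0344% and 0.0102% in PN5 Het and 0.281%, 0.0956% and 0.805% in PN5 KO. In early 2-cell embryos it was at most 0.109% in Het and 0% in KO. The PN5 KO libraries thus all lay above the PN5 Het libraries, PN5 KO replicate 2 only narrowly (0.0956% against 0.0705% in PN5 Het replicate 1). Cyp11a1, a steroid-making enzyme, gave 561 of the 748 marker counts. It had 160 counts in M2 Het replicate 1, 47 in PN5 KO replicate 1 and 340 in PN5 KO replicate 3. PN5 KO replicate 2 and PN5 Het replicate 1 had 0 counts of it. The part of these cells in the results was not tested.

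The 98 members held 23977 counts, 7.90% of all non-rRNA counts and 0.290% of all counts. A few rows made up nearly all of this: Malat1 held 34.3% of the members' counts, Malat1 and Vaultrc5 together 61.9%, the 7 leading rows 93.4% and the 12 leading rows 96.5%. The median member had 7 counts over 15 libraries, 43 members reached 10, 32 were seen in 1 library only, and 7 were seen in all 15. By class, the nuclear long RNAs gave 34.4% of the members' counts, vault RNA 27.6%, the RNase P, MRP and telomerase RNAs 13.8%, 7SK 11.9%, C/D snoRNAs 8.79%, H/ACA snoRNAs 2.85%, spliceosomal U RNAs 0.559%, scaRNAs (guides that act in Cajal bodies) 0.13% and 7SL 0.0209%. The 6 rows transcribed by RNA polymerase III (Rn7sk, both Rmrp rows, Rpph1, Vaultrc5 and Rn7s2) held 53.3%. Set against length, with the counts of all libraries pooled, Vaultrc5 had 19180 counts per kilobase and Rn7sk 8581, against 2127 for Snord49b, 1815 for Rpph1, 1507 for Snora73b, 1222 for Rnu11 and 1178 for Malat1. Snord2 had 1000 and Snora47 548. The Rmrp and Rnu3a rows were left out, because a symbol shared between rows gave no length. Malat1, with a transcript of 6983 bases, stood 7th of these 9 members on the pooled scale. Pooling gives deep libraries more weight: by library its place among the 9 ran from 2nd in PN5 KO replicate 3 to 9th in 3 libraries.

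**Figure D1:**
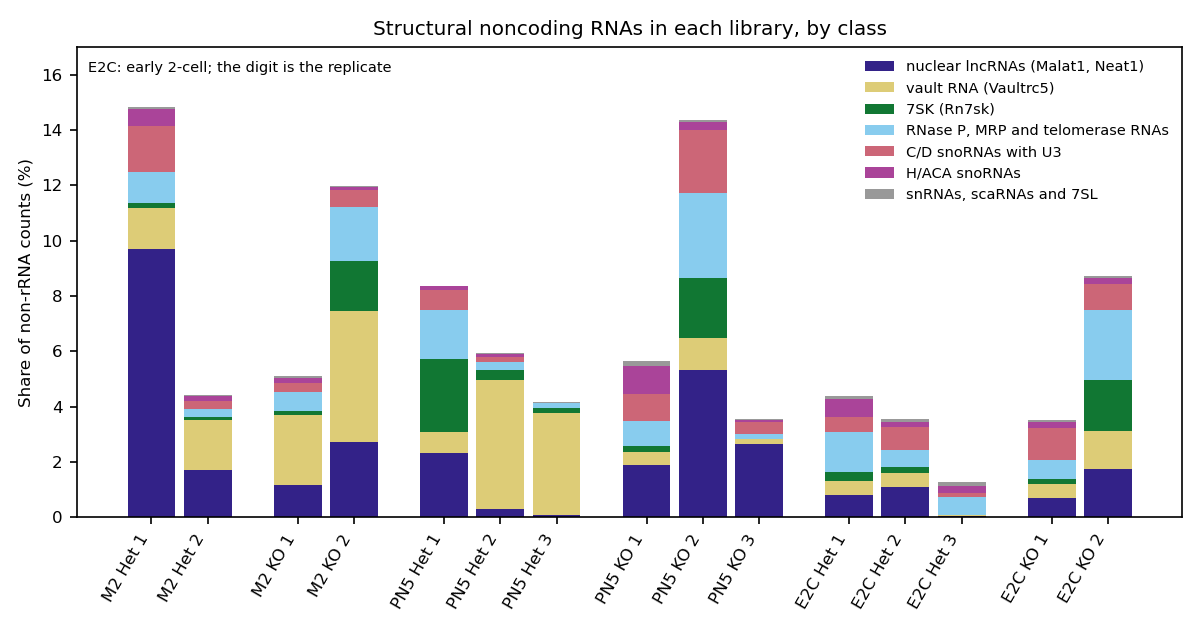
Stacked bars give the share of non-rRNA counts (%) that each class of structural noncoding RNA took in each of the 15 libraries, grouped by stage and genotype. The summed height runs from 1.29% to 14.8%, and every pair of groups compared overlaps.

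The summed share of the members varied widely within groups. It was 14.8% and 4.42% in M2 Het, 5.11% and 11.98% in M2 KO, 8.37%, 5.94% and 4.18% in PN5 Het, and 5.64%, 14.4% and 3.56% in PN5 KO. In early 2-cell embryos it was 4.40%, 3.53% and 1.29% in Het and 3.497% and 8.71% in KO. Every pair of groups compared overlapped. As differences of group means of log2 share, KO minus Het was -0.05 in M2 eggs (pooled SD 1.07), 0.16 in PN5 zygotes (SD 0.81) and 1.02 in early 2-cell embryos (SD 0.94). The early 2-cell difference came down to 0.36 without early 2-cell KO replicate 2 and to 0.49 without early 2-cell Het replicate 3, and rose to 1.68 without early 2-cell KO replicate 1.

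Between stages, the log2 share differed by -0.45 (SD 0.82) from M2 eggs to PN5 zygotes and by -1.13 (SD 0.76) from PN5 zygotes to early 2-cell embryos in Het. In KO the same steps were -0.24 (SD 0.98) and -0.26 (SD 1.00). The step from PN5 to early 2-cell in Het was the only stage step larger than its SD, and it was -0.59 without early 2-cell Het replicate 3. It rested on Vaultrc5: with that row left out of the sum, it became 0.52. The step from M2 to PN5 in Het changed to 0.42 without M2 Het replicate 1, the library with the highest Malat1 share. No p-value was computed for the sum, since the members were proposed with it in view.

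Which row led the sum changed from library to library. Malat1 and Vaultrc5 together made up between 5.17% and 89.5% of the members' counts in a library, with a median of 45.1%. In PN5 Het replicates 2 and 3, Vaultrc5 alone was 78.7% and 87.5% of the members' counts, against 8.85% in PN5 Het replicate 1 and 5.36% to 8.11% in the 3 PN5 KO libraries. In M2 Het replicate 1 and PN5 KO replicate 3 it was Malat1 that dominated, with 65.6% and 73.9%.

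Of the 98 members, 13 passed the filter on low counts (edgeR's filterByExpr, minimum count 10) and entered the fit over 495 rows: Malat1, Vaultrc5, Rn7sk, Rpph1, Rnu11, Snora47, Snora73b, Snord2, Snord49b and 2 rows each of Rmrp and Rnu3a. The other 85 could not be tested, and a row that passed only through the group where it is high had to differ, so the 13 do not stand for the whole class. With edgeR's quasi-likelihood test and Benjamini-Hochberg adjustment over the 495 rows, 0 of the 13 members were called in each of the 9 comparisons, beside 0% of all rows. At an unadjusted p under 0.05 the same test took 0 members in M2 KO against Het (all rows 1.21%), 1 in PN5 KO against Het (7.07%) and 0 in early 2-cell KO against Het (5.05%). Among the stage steps it took 1 from M2 to PN5 in Het (3.43%), 2 from PN5 to early 2-cell in Het (19.6%), 1 from M2 to PN5 in KO (4.24%) and 0 from PN5 to early 2-cell in KO (8.69%). For the difference in KO effect between stages it took 2 members (PN5 minus M2, all rows 5.25%) and 1 (early 2-cell minus PN5, 5.25%). DESeq2 and limma-voom each called 1 member, Vaultrc5, from PN5 to early 2-cell in Het and 0 in every other comparison. In that step DESeq2 called 11.9% of the 336 rows to which it gave an adjusted p, and limma-voom 2.22% of the 495. Elsewhere DESeq2 called 0.431% of 464 rows in M2 KO against Het, 0.431% in PN5 KO against Het, 0.862% in early 2-cell KO against Het, 0.862% from M2 to PN5 in Het, 0.216% in KO, 6.19% of 210 rows from PN5 to early 2-cell in KO and 0% for the differences between stages, and limma-voom 0% throughout.

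The number of members whose groups did not overlap in normalised CPM (counts scaled to TMM-adjusted library size) stood beside that over all rows as follows. In M2 KO against Het it was 4 of 13 (Rnu11, Rpph1, Snora73b and Vaultrc5, all rows 23.4%), and in PN5 KO against Het 0 of 13 (5.86%). In early 2-cell KO against Het it was 2 of 13 (1 Rmrp row and Rnu11, all rows 10.1%), resting on 1 to 15 counts a library. From M2 to PN5 it was 3 in Het (Rpph1, Snora47 and Snora73b; 16.6%) and 2 in KO (Rpph1 and Vaultrc5; 7.47%), and from PN5 to early 2-cell it was 2 in Het (Rn7sk and Vaultrc5; 18.6%) and 2 in KO (Malat1 and 1 Rnu3a row; 20.8%). The median log2 fold change of the 13 members in KO against Het was 0.58 in M2, 1.32 in PN5 and 0.67 in early 2-cell embryos. That of all rows was -0.02, 0 and 0. Rows with no count in either group enter the all-row median with a log2 fold change of 0. The 13 members hold 2 rows each of Rmrp and Rnu3a, and the medians were not tested. From PN5 to early 2-cell the all-row median was itself -1.90 in Het and -1.60 in KO, against -1.39 and -0.90 for the members. Fold changes across that step are read against these medians. In Het, early 2-cell libraries held 1843 to 8996 non-rRNA counts, against 9784 to 42535 in PN5. In KO they held 1733 to 2488, against 15691 to 45117. The part of depth in these medians was not tested.

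**Figure D2:**
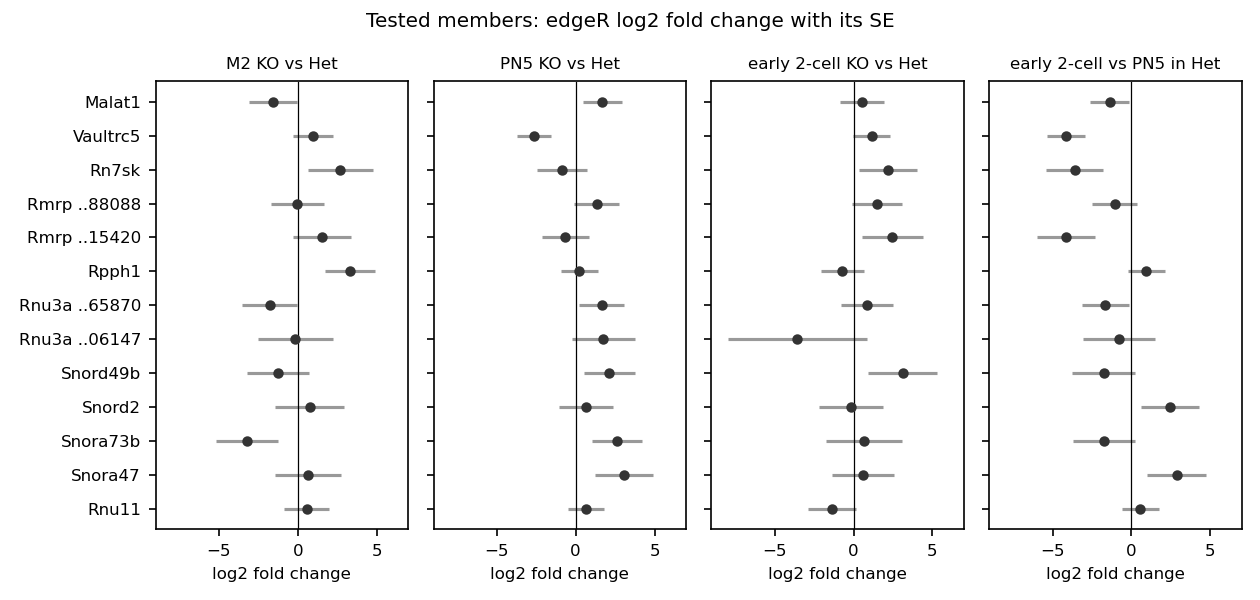
Points give edgeR's log2 fold change for each of the 13 tested members and bars its SE, in 3 KO against Het comparisons and in early 2-cell against PN5 embryos of Het females. Members with 2 rows are told apart by the last digits of the row's identifier, and the Vaultrc5 point at -4.14 in the last panel is the only one that another tool called.

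Vaultrc5, the mouse vault RNA, was the only member that any tool called. Its share in M2 eggs was 1.47% and 1.81% in Het and 2.53% and 4.74% in KO. In PN5 zygotes it was 0.741%, 4.67% and 3.66% in Het and 0.458%, 1.15% and 0.191% in KO. At the early 2-cell stage it was 0.488%, 0.517% and 0.0333% in Het and 0.523% and 1.38% in KO, resting there on 3 to 24 counts a library. The 2 KO libraries lay above the 2 Het libraries in M2 eggs, while in zygotes 2 of 3 Het libraries lay above every KO library and PN5 Het replicate 1 lay among them.

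In PN5 zygotes the log2 fold change of Vaultrc5 in KO against Het was -2.65 (SE 1.09, n = 3 and 3; edgeR adjusted p = 0.697), and it was -1.46 without PN5 Het replicate 2. In M2 eggs it was 1.00 (SE 1.26; edgeR adjusted p = 1), so the KO effect at PN5 minus that at M2 was -3.65 (SE 1.68; edgeR adjusted p = 0.847). The KO effect in early 2-cell embryos was 1.14 (SE 1.16; edgeR adjusted p = 1). None of these passed the threshold after adjustment.

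From PN5 to early 2-cell, Vaultrc5 in Het had a log2 fold change of -4.14 (SE 1.18; edgeR adjusted p = 0.183), each of the 3 early 2-cell libraries lying below each of the 3 zygote libraries. DESeq2 gave -3.18 with an adjusted p of 0.0170 and limma-voom -4.71 with an adjusted p of 0.0371. Over all settings tried the adjusted p ran from 0.0170 to 0.416. In KO the same step was -0.35 (SE 1.17, edgeR adjusted p = 0.920). These fold changes are on TMM-adjusted library size over all kept rows, rRNA included, and not on non-rRNA shares. As a share, the KO mean was higher after the step, at 0.599% in PN5 and 0.954% in early 2-cell embryos. The 3 KO zygote libraries ran from 0.191% to 1.15%. The difference between the genotypes in the log2 fold change of this step was 3.795 (SE 1.57, edgeR adjusted p = 0.837). From M2 to PN5 the values were 0.79 (SE 1.17) in Het and -2.87 (SE 1.16; edgeR adjusted p = 1) in KO.

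Of the 4 partners listed, Mvp, which forms the vault shell, and the vault proteins Tep1 and Parp4 had no count in any library. Ssb, the La protein that binds new polymerase III transcripts, had 259 counts and was not called in any comparison by edgeR. Its share was 0.108% and 0.217% in M2 Het, 0% and 0.0748% in M2 KO and 0.310% in PN5 Het replicate 1, and it had no count in the other PN5 libraries or in early 2-cell embryos. The 1 zygote library with Ssb was the PN5 Het library with the lowest Vaultrc5 share. In M2 Het and in M2 KO the order was the other way: the library with more Ssb had the higher Vaultrc5 share. A relation between Ssb and Vaultrc5 was not tested.

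**Figure D3:**
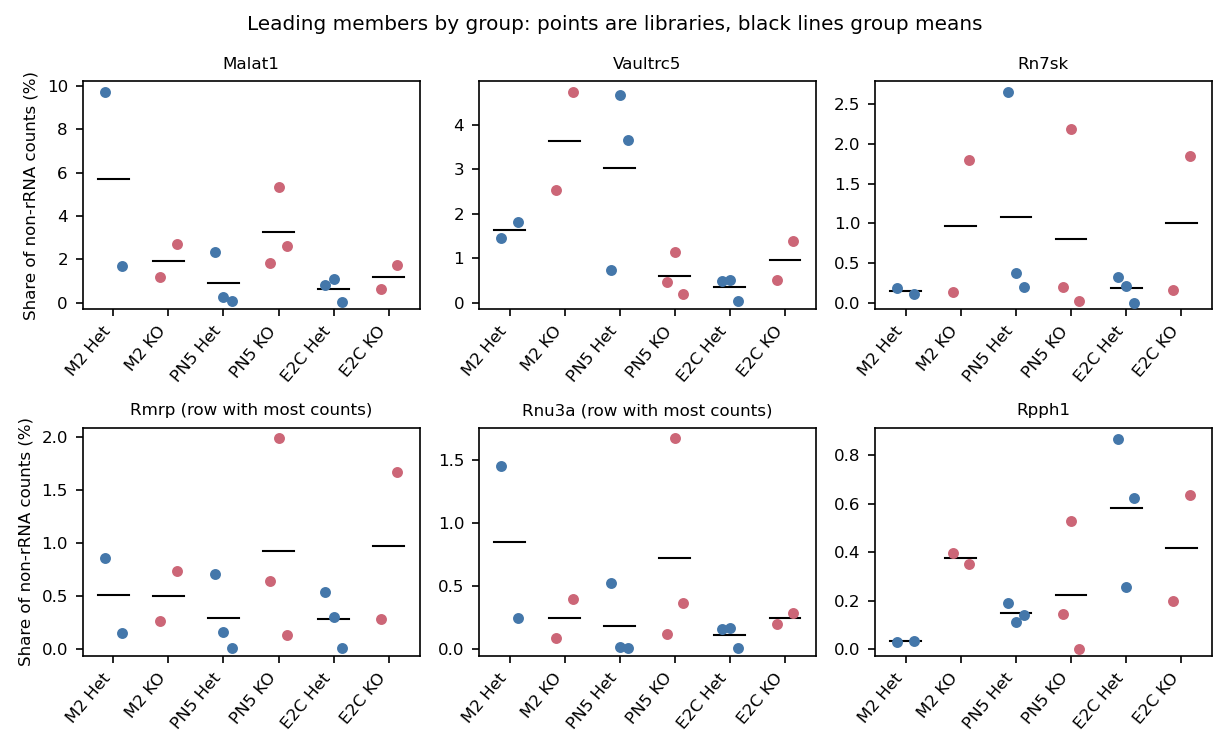
Points give the share of non-rRNA counts (%) of 6 leading members in each library, with black lines at group means, for Het and KO at 3 stages; each panel has its own linear axis. Malat1 reaches 9.71% in 1 M2 Het library, and Vaultrc5 is at 3.66% and 4.67% in 2 of the 3 PN5 Het libraries against at most 1.15% in PN5 KO.

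Malat1, on chromosome 19 at 5795690 to 5802672 (positions here are RefSeq's on GRCm38.p6), is a nuclear speckle RNA expressed in most cell types. Its share was 9.71% and 1.69% in M2 Het and 1.18% and 2.72% in M2 KO. In PN5 zygotes it was 2.32%, 0.286% and 0.0818% in Het and 1.84%, 5.32% and 2.63% in KO. Early 2-cell libraries had 0.814%, 1.08% and 0.0333% in Het and 0.643% and 1.73% in KO. The PN5 Het libraries thus spanned a wide range that took in 1 of the 3 KO libraries. The high M2 Het value came from 1 library of 2, M2 Het replicate 1, where the cumulus and granulosa markers were also highest in that group. Malat1 and these markers also peaked in the same library in M2 KO and in PN5 Het. In PN5 KO they did not: replicate 2 had the highest Malat1 share and the lowest marker share (0.0956%). The part of these cells in the Malat1 share was not tested. KO against Het gave -1.55 (SE 1.52) in M2, 1.70 (SE 1.24) in PN5 and 0.53 (SE 1.37) in early 2-cell embryos on the log2 scale, with an edgeR adjusted p of 1 each time. Neat1, the paraspeckle scaffold RNA, had 19 counts in all, 11 of them in PN5 KO replicate 1, which is 0.9 counts per kilobase. Of 9 speckle and paraspeckle proteins listed, 6 had a count, led by Srrm2 with 825, and 0 of the 3 tested were called by edgeR.

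Rn7sk, the 7SK RNA on chromosome 9 at 78175302 to 78175633, had shares of 0.187% and 0.107% in M2 Het and 0.132% and 1.80% in M2 KO. In PN5 zygotes it was 2.65%, 0.376% and 0.204% in Het and 0.204%, 2.19% and 0.0199% in KO. At the early 2-cell stage it was 0.326%, 0.216% and 0% in Het and 0.161% and 1.85% in KO. A single library lay well above the rest in M2 KO, in both PN5 groups and in early 2-cell KO. From PN5 to early 2-cell in Het its log2 fold change was -3.59 (SE 1.80; edgeR adjusted p = 0.275). Among the 6 proteins of the 7SK particle, Hexim1, which inhibits P-TEFb on 7SK, had 81 of their 96 counts, and Cdk9, the P-TEFb kinase, had none.

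RNase MRP RNA appears as 2 rows named Rmrp in the table. The sources used here do not say how reads were divided between them, so their separate values are uncertain. The row ENSMUSG00000088088 had shares of 0.858% and 0.158% in M2 Het, 0.265% and 0.736% in M2 KO, 0.708%, 0.159% and 0.0102% in PN5 Het and 0.640%, 1.99% and 0.140% in PN5 KO. In early 2-cell embryos it had 0.543%, 0.302% and 0.0111% in Het and 0.281% and 1.67% in KO. The row ENSMUSG00000115420 had at most 0.872% (M2 KO replicate 2) and at least 0.0102% (PN5 Het replicate 3). Groups overlapped for both rows in M2 and PN5. The second row had a log2 fold change of -4.12 (SE 1.84, unadjusted p = 0.0395; edgeR adjusted p = 0.246) from PN5 to early 2-cell in Het, where 1 of 3 zygote libraries was far above the rest.

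Rpph1, the RNA of RNase P, which trims the 5′ end of tRNA precursors, lies on chromosome 14 at 50807447 to 50807771. In M2 eggs its share was 0.0298% and 0.0355% in Het (8 and 9 counts) against 0.397% and 0.351% in KO (30 and 202 counts). In PN5 zygotes it was 0.190%, 0.111% and 0.143% in Het and 0.143%, 0.529% and 0.00222% in KO, and in early 2-cell embryos 0.868%, 0.259% and 0.622% in Het and 0.201% and 0.635% in KO. The replicates lay close together in both M2 groups and overlapped between genotypes at the later stages. In M2 eggs it stood at 14.2 ± 4.00 normalised CPM in Het and 143 ± 1.75 in KO (SD, n = 2 and 2). The log2 fold change was 3.32 (SE 1.57), with an unadjusted p of 0.0505 and an adjusted p of 1 by edgeR; it ran from 3.05 to 3.63 over the settings tried, with no call. In PN5 the KO effect was 0.24 (SE 1.17), and the difference between the stages was -3.08 (SE 1.90; edgeR adjusted p = 0.956). Of 12 proteins of RNase P, RNase MRP and telomerase, only Pop7 had counts, 10 in all, and Terc, the telomerase RNA, had 1.

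U3, the C/D-type RNA needed for cutting the 18S precursor, took 71.5% of the counts of all C/D snoRNAs, in 4 rows with 1506 counts. The row Rnu3a ENSMUSG00000065870 had shares of 1.45% and 0.249% in M2 Het, 0.0927% and 0.397% in M2 KO, 0.524%, 0.0185% and 0.0102% in PN5 Het and 0.121%, 1.67% and 0.370% in PN5 KO. Early 2-cell libraries had 0.163%, 0.172% and 0.0111% in Het and 0.201% and 0.289% in KO. One library stood above the rest in each M2 and PN5 group, and the genotypes overlapped at both stages. The KO effect was -1.76 (SE 1.74) in M2, 1.65 (SE 1.42) in PN5 and 0.85 (SE 1.67) in early 2-cell embryos, with an edgeR adjusted p of 1 each time. Of 6 C/D snoRNP proteins in the table, 4 had a count, led by Nop58, a core protein of the particle, with 233; the methyltransferase Fbl had few counts and was not tested, and 0 of 3 tested were called by edgeR.

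The library with the highest Malat1 share in its group was replicate 1 of M2 Het and PN5 Het, and replicate 2 of the other 4 groups. It was also the highest of its group for Rnu3a ENSMUSG00000065870 in 6 of 6 groups and for Rn7sk and each Rmrp row in 5 of 6. It was the highest for Vaultrc5, Snora73b and Snord49b in 4 of 6 groups, for Rpph1 and Rnu11 in 3 of 6 and for Snora47 in 2 of 6. Among the 234 tested non-rRNA rows other than Malat1 with counts in every group, the median was 3 of 6 groups, and 13.2% shared 5 or more. Groups hold only 2 or 3 libraries and these counts were not tested.

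Intron-encoded and other snoRNAs and scaRNAs made up 86 of the 98 members but 11.8% of their counts. A RefSeq position was found for 77 of them by symbol, with a median length of 81 bases (28 to 275), and 74 of these lay inside another gene, 26 in ribosomal protein genes and 14 in Snhg genes or Gas5, noncoding hosts. Strand was not compared. Of the 74, 31 had more counts than the gene around them, and for 19 the gene around them had no count. Snora73b, which lies in Snhg3 on chromosome 4, had 309 counts where Snhg3 had none. Snord2 and Snora81, in Eif4a2, an RNA helicase of the initiation machinery, had 68 and 27 counts where Eif4a2 had 10. The reverse held in Ncl, the gene of nucleolin: Snora75 and Snord82 had 31 and 17 counts against 18158 for Ncl itself. Of 36 snoRNA host genes listed, 23 had a count, and Ncl gave 18158 of their 19240 counts; 0 of the 7 tested were called by edgeR.

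Snora73b, an H/ACA RNA implicated in ribosomal RNA processing, had shares of 0.563% and 0.0948% in M2 Het and 0.0132% and 0.0522% in M2 KO. In PN5 zygotes it had 0.0517%, 0.00794% and 0% in Het and 0.265%, 0.147% and 0.0111% in KO, and in early 2-cell embryos it had at most 1 count a library. The Het libraries lay above the KO libraries in M2 eggs, and 2 of the 3 KO libraries above every Het library in zygotes. The summed cumulus and granulosa markers had a higher mean in the same groups. Within M2 Het, M2 KO and PN5 Het the libraries stood in the same order for these markers and for Snora73b. The M2 groups hold only 2 libraries each. In PN5 KO the order differed: replicate 3 had the highest marker share (0.805%) and the lowest Snora73b share. The part of these cells was not tested. For Snora73b the log2 fold change in KO against Het was -3.21 (SE 1.96) in M2 and 2.63 (SE 1.57) in PN5. The difference between these KO effects was 5.85 (SE 2.53, edgeR unadjusted p = 0.0347 and adjusted p = 0.847). From M2 to PN5 in Het the log2 fold change of Snora73b was -3.95 (SE 1.72, edgeR adjusted p = 0.855).

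Snord49b, a C/D RNA on chromosome 11 at 62603086 to 62603148, had 134 counts. Its share was 0.0746% and 0.0158% in M2 Het, 0% and 0.0331% in M2 KO, 0.0235%, 0.0344% and 0% in PN5 Het and 0.149%, 0.178% and 0.0133% in PN5 KO; early 2-cell libraries held at most 5 counts. The KO effect in PN5 was 2.14 (SE 1.64; edgeR adjusted p = 1), with 2 of 3 KO libraries above every Het library. Snora47, an H/ACA RNA in Zbed3, had 69 counts, 26 of them in PN5 KO replicate 1, and a KO effect in PN5 of 3.07 (SE 1.81; edgeR adjusted p = 0.950). Snora81 had 24 of its 27 counts in early 2-cell Het replicate 3.

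How many snoRNA and scaRNA rows had a count varied with depth and with the library. It was 21 and 13 in M2 Het, 18 and 33 in M2 KO, 36, 32 and 1 in PN5 Het and 48, 30 and 15 in PN5 KO. The early 2-cell stage had 13, 10 and 5 in Het and 13 and 10 in KO. The 4 shallowest libraries, with 1733 to 2488 non-rRNA counts, were early 2-cell libraries, and PN5 Het replicate 3 stood out at 1 row. At an equal depth of 7549 non-rRNA counts, drawn without replacement, the expected number was 11.7 and 8.47 in M2 Het, 18 and 14.04 in M2 KO, 16.04, 13.7 and 0.772 in PN5 Het and 37.05, 20.9 and 8.34 in PN5 KO. Early 2-cell Het replicate 3, the only one of that stage deep enough, gave 4.65. At a depth of 1733, which all libraries reach, it was 5.76 and 3.94 in M2 Het and 7.13 and 5.56 in M2 KO, so that the M2 genotypes, apart at the first depth, overlapped at the second. The PN5 genotypes overlapped at both, with 5.95, 4.29 and 0.177 in Het and 19.2, 9.54 and 3.34 in KO at 1733. The early 2-cell libraries gave 12.5, 8.22 and 2.58 in Het and 10.95 and 10 in KO there.

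**Figure D4:**
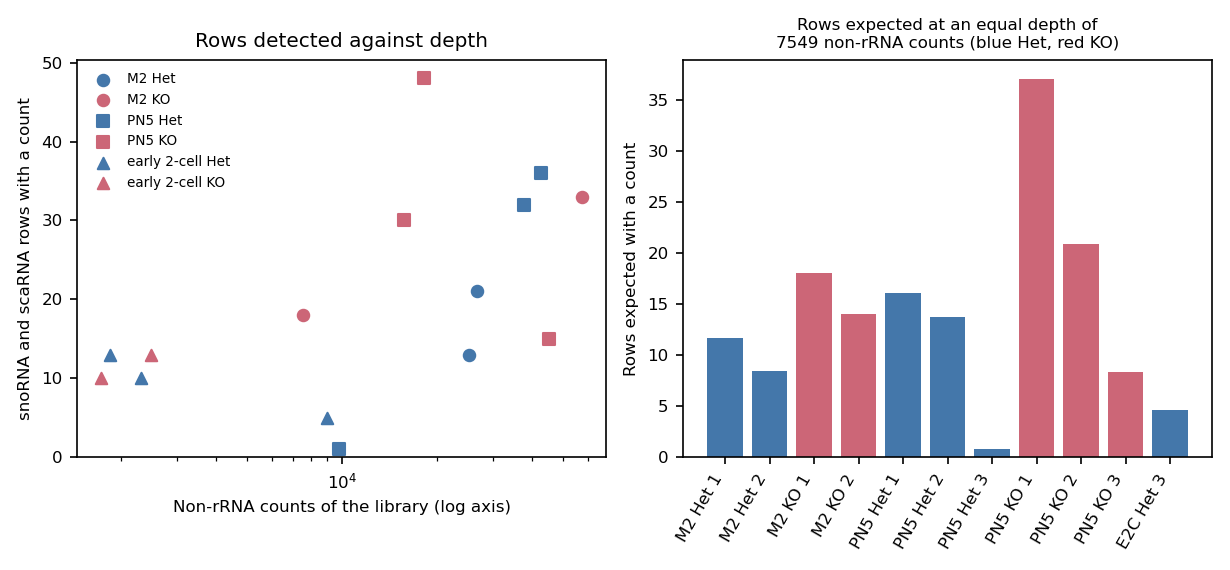
The left panel plots the number of snoRNA and scaRNA rows with a count against the non-rRNA counts of the library (log axis), and the right panel the number expected at an equal depth of 7549 non-rRNA counts, for libraries that reach it. PN5 KO replicate 1 is highest in both panels, with 48 rows observed and 37.05 expected, and PN5 Het replicate 3 is lowest, with 1 and 0.772.

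PN5 KO replicate 1 held the widest set. Of the 86 rows, 25 had their highest count there, 8 were seen only there, and 15 reached 10 counts, where the other libraries had 0 to 6 such rows. Among them were Snord100 in Rps12 with 30 of its 56 counts, Snord87 in Snhg6 with 25 of 39, a Snora16a row with 25 of 36, Snord15a in Rps3 with 13 of 13 and Snora64 in Rps2 with 11 of 11. Scarna2, the leading scaRNA with 19 counts, had 10 there, 8 in PN5 KO replicate 3 and 1 in M2 Het replicate 1. The other 2 PN5 KO libraries had fewer rows at 10 counts. At the equal depth of 7549 non-rRNA counts, PN5 KO replicate 2 gave 20.9 expected rows, the next highest after 37.05 in replicate 1. Replicate 3 gave 8.34.

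Spliceosomal and signal recognition particle RNAs gave few counts. Rnu11, the U11 RNA of the minor spliceosome on chromosome 4 at 132270079 to 132270186, gave 132 of the 134 counts of its class and was seen in all libraries. Its share was 0.0373% and 0.0276% in M2 Het, 0.0662% and 0.0435% in M2 KO, 0.0282%, 0.0318% and 0.0511% in PN5 Het and 0.0883%, 0.0892% and 0.0133% in PN5 KO. In early 2-cell embryos it was 0.0543%, 0.0862% and 0.167% in Het and 0.0402% and 0.0577% in KO. The highest share was closer to the lowest than for any other of the 12 leading members; the KO effect was 0.58 (SE 1.42) in M2, 0.65 (SE 1.16) in PN5 and -1.36 (SE 1.49) in early 2-cell embryos, with an edgeR adjusted p of 1 each time. The 8 rows named for U1, U2, U5 and U6 had 2 counts in all. The 3 rows of 7SL had 5 counts, 2 in PN5 Het replicate 2 and 3 in PN5 KO replicate 3. With the other 13 libraries pooled, a count of 0 allows a share of up to 0.00136%. In the shallowest library alone it allows up to 0.173%. The 17 rows of the Snord116 cluster had none. These RNAs have many near-identical copies in the genome, and the sources used here do not say how reads with several matches were counted. Of 33 spliceosomal proteins listed, 8 had a count, led by Sart3 with 128, and of 11 signal recognition particle proteins 1 had, Srp19 with 5; 0 of the 2 spliceosomal proteins tested were called by edgeR.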

How the data were processed

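RNA left after RNase I digestion and anti-HA pull-down was sequenced in 15 libraries of 6 groups. The deposited table holds estimated counts per gene, whole numbers with no scaling between libraries; per the submitters' processing notes the authors used GRCm38 with STAR 2.7.6a and cutadapt, and also deepTools 3.5.1 and StringTie 2.1.4, with no role given for each. Such estimates depend on assumed read length and on the treatment of reads that match several places, neither of which is given here. The labels do not say whether libraries of a group came from separate females or collections, so p-values measure the spread between these libraries, which may be partly technical.

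Members were taken from the table by symbol. Members and lists were chosen with earlier results of these data known. The 12 members with most counts, the leading member of each class and any member called were to be named with their values; Neat1, Terc, Snord2, Snora75, Snord82, Snora81, Snord100, Snord87, Snora16a, Snord15a, Snora64, Rn7s2 and the rows at 0 were otherwise chosen after their values were seen. Shares are of non-rRNA counts, which leave out 58 cytosolic and mitochondrial rRNA rows with a count, including rows named for 28S, 18S and 5.8S rRNA that were added to the list once the table was seen. Tests used edgeR 4.0.16 in R 4.3.3 (quasi-likelihood, robust, TMM, filterByExpr over the 6 groups, 495 rows kept, 1 fit of all libraries, threshold adjusted p under 0.05); CPM values are TMM-normalised. DESeq2 1.42.0, limma-voom (limma 3.58.1), other scalings, no filter, a replicate block and leaving out each library were tried. The scripts were tested on simulated data. Numbers of rows expected at equal depth are exact expectations. Limits for a count of 0 use 3 counts and cover counting error only. Symbols were matched to a RefSeq table of GRCm38.p6, which held 95 of 98 members.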

Additional observations from a re-analysis of the deposited data

How the results depend on the processing

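A count of called members was taken as kept where it was equal, and a difference in summed share where it moved by less than the pooled SD between libraries, whatever its sign. By this measure 276 values under other settings were kept, 5 moved and 4 moved with a change of sign. Most of the kept values were counts of called members that stayed at 0. They had little room to move, since edgeR's main fit called 0% of all rows in each comparison. Of the 71 summed differences kept, 14 changed sign within the SD: 3 in M2 KO against Het, 2 in PN5 KO against Het, 5 from M2 to PN5 in KO and 4 from PN5 to early 2-cell in KO. The count of called members stayed at 0 by edgeR in all 9 comparisons under other scalings, without the low-count filter and with each library left out (0 to 0). It was 1 from PN5 to early 2-cell in Het by DESeq2 and 1 by limma-voom, the member being Vaultrc5; the cause was not tested. DESeq2 gave an adjusted p for 12 of the 13 members there. The difference in summed log2 share depended on which row was summed: PN5 KO against Het went from 0.16 to -0.71 without Malat1 and to 1.84 without Vaultrc5. M2 to PN5 in Het went from -0.45 to 0.48 without Malat1 and to -1.78 without Vaultrc5, and PN5 to early 2-cell in Het from -1.13 to 0.52 without Vaultrc5. Leaving out Vaultrc5 was chosen after seeing the data, as was leaving Mir6236 out of the denominator.

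With each library left out in turn, the summed difference ran from -0.92 to 0.82 in M2 KO against Het, from -0.40 to 0.60 in PN5, from 0.36 to 1.68 in early 2-cell, and from -1.32 to 0.42 (M2 to PN5) and -1.47 to -0.59 (PN5 to early 2-cell) in Het. In KO it ran from -0.86 to 0.37 and from -0.92 to 0.40.

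Deviations of same-numbered Het and KO libraries correlated at -0.15 for M2, from -0.32 to 0.10 for PN5 and from -0.04 to 0.03 for early 2-cell. With 2 libraries in each M2 group, M2 gives a single value. The labels do not say whether same-numbered libraries were collected or processed together, and these correlations cannot decide it. With the replicate block edgeR called 0 members in each comparison, as it did with the M2 numbers crossed, an alternative added after seeing the data. The block gave summed differences of -0.05, 0.16 and 0.49 for KO against Het by stage.

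Depth limits most members: the 85 not tested had too few counts. A count of 0 allows a share of up to 0.173% in the shallowest library and 0.0333% in the deepest early 2-cell library.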
